A study of Mus musculus with 16 samples.

Results

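The genes described here are 41 histone lysine demethylases, methyltransferases and partners of the methyltransferase complex PRC2, measured by RNA-seq in B16F10 tumors, out of 18929 genes in the deposited values. They were chosen by their gene symbols. They comprise 15 α-KG-dependent members of demethylase families (erasers), 2 FAD-dependent demethylases, 21 members of methyltransferase families (writers) and 3 PRC2 partners. All 41 passed the filter on low values that left 12850 genes for testing. B16F10 is a mouse melanoma cell line. The tumors grew from cells injected at the right abdomen, in female C57BL/6 mice aged 7 to 8 weeks. Each group held 4 tumors, taken as separate tumors by their labels. Per the study's methods, injections ran for 9 to 11 days and tumors were collected by size. Vehicle mice received corn oil and an IgG isotype control, anti-PD1 mice an antibody against the checkpoint receptor PD1, α-KG mice alpha-ketoglutarate at 100 mg/kg, and α-KG + anti-PD1 mice both. All tumors came from the same cell line and carry no engineered allele, and a bulk tumor holds melanoma cells together with host cells. The comparison of erasers with writers asks whether the genes whose products use α-KG as a cosubstrate moved apart from the writers. The 2 lists were not matched by mark.

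Methyl groups on histone lysines mark chromatin states. Trimethylation of H3K4 lies at active promoters and monomethylation of H3K4 at enhancers, methylation of H3K36 lies over transcribed gene bodies, and H3K9 and H3K27 trimethylation mark silenced chromatin. Writers of the SET family and DOT1L transfer the methyl group from S-adenosylmethionine. Jumonji demethylases remove it in a reaction that consumes α-KG and oxygen and needs iron, whereas KDM1A and KDM1B use FAD. The values below are transcript levels and say nothing of enzyme activity or of the histone marks themselves.

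The level of a gene is given in FPKM, fragments per kilobase of transcript scaled to the depth of the library. Over all 16 tumors the mean level of the α-KG-dependent erasers ran from 0.483 FPKM for Hr to 43.8 FPKM for Kdm3a, with a median of 9.56 FPKM. The writers ran from 1.96 FPKM for Setdb2 to 59.9 FPKM for Ehmt2, with a median of 9.51 FPKM. Kdm1a was at 20.8 FPKM and Kdm1b at 3.01 FPKM. Among the PRC2 partners Suz12 had the highest mean, 29.4 FPKM, and Jarid2 the lowest, 7.61 FPKM. Erasers and writers therefore had like median levels, and Hr was the single member whose mean was under 1 FPKM.

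Read counts were not given. In genes listed above 0 in at most 5 tumors, the product of FPKM and transcript length piled up at 1 value in each tumor, which was taken as the worth of 1 fragment. This put the depth at about 12550000 to 16560000 fragments in the vehicle, 12550000 to 13450000 in the anti-PD1, 8880000 to 12550000 in the α-KG and 9510000 to 13450000 in the combination tumors. By this estimate 5 members (Hr, Kdm8, Kdm1b, Setdb2 and Suv39h2) fell below 100 fragments in at least 1 tumor, so their small changes are the least precise.

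The tumors differed in cell makeup and scale, and the values that touch the members are these. The 10 leukocyte markers, all detected, summed to 67.2 to 215 FPKM in the vehicle tumors and to 215 to 410 FPKM with anti-PD1. They summed to 563 to 606 FPKM with α-KG and to 327 to 1112 FPKM with the combination. The 12 T cell markers summed to 3.41 to 16 FPKM with vehicle, 15.9 to 49.2 FPKM with anti-PD1, 9.91 to 58.6 FPKM with α-KG and 35.6 to 295 FPKM with the combination. All 12 rose with the combination against vehicle and against α-KG and 11 against anti-PD1, and 0 with either single agent. The 8 neutrophil markers summed to 1082 to 2872 FPKM in α-KG tumors and to at most 113 FPKM in any other tumor. The 8 skeletal muscle markers reached 937 FPKM in vehicle tumor 4 and stayed between 4.08 and 6.31 FPKM in the tumors given a single agent. The erythroid markers summed to 10891 to 11752 FPKM in α-KG + anti-PD1 against 63147 to 107440 FPKM in vehicle tumors. The melanocyte markers were high in every tumor, at 8103 to 11017 FPKM. The sum of all values was lower in the α-KG + anti-PD1 tumors (514180 to 527812 FPKM) than in the vehicle tumors (578171 to 635205 FPKM), and the median gene tested was at 3.51 to 3.61 against 3.19 to 3.35 on the log2(FPKM + 1) scale. Changes of members are therefore given as deposited and after each tumor was centered on its own median. In bulk tumors fewer cells of a type and less RNA per cell cannot be told apart, and the part of the cell makeup in the results was not tested.

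The promoters of 4 members that moved in the data are shown, Kmt2d and Kmt2a, which rose with the combination, and Ezh2 and Suz12, which fell with α-KG. The sequences are from RefSeq on GRCm38.p6, run 5′ to 3′ on the gene's strand from 250 bases before to 50 bases after the listed start, and matched 28 of the 41 members. Capitals mark 3 motifs searched on both strands, the E2F-type TTTNNCGC, the CCAAT box CCAAT and the GC box GGGCGG, and an NRF1-type GCGCATGC was searched as well. The Ezh2 window is chr6:47594981-47595280 on the minus strand and the Suz12 window chr11:79992856-79993155 on the plus strand.
Ezh2: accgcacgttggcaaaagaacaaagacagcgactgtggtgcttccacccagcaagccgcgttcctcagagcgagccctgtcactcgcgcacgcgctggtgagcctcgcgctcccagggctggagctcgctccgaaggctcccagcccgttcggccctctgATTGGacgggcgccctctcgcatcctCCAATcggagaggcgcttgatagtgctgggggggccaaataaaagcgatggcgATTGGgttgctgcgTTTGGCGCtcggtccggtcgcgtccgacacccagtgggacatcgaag
Suz12: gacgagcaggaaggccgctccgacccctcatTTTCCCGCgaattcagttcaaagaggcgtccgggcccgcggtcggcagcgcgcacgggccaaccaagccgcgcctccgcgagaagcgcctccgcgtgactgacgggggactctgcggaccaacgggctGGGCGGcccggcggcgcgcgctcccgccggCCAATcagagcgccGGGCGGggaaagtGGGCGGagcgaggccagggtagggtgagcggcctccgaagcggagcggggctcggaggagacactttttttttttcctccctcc
The Kmt2d window is chr15:98871156-98871455 and the Kmt2a window chr9:44881240-44881539, both on the minus strand. The Kmt2d window lies wholly within the gene span given below (chr15:98831669-98874077), so its listed start is not the outermost 5′ end of that span.
Kmt2d: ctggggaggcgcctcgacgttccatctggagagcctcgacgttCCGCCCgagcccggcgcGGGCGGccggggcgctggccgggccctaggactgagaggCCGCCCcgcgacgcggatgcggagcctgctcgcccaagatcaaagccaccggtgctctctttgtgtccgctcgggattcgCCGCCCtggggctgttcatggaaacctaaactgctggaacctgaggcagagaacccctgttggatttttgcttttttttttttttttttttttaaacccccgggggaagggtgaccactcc
Kmt2a: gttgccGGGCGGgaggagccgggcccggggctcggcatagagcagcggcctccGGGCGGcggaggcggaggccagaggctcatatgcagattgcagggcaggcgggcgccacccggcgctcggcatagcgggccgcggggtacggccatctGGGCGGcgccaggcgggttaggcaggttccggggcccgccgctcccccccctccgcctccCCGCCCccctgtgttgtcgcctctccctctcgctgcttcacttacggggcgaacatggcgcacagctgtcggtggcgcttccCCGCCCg
The E2F-type motif was found in 2 of the 28 member promoters, those of Ezh2 and Suz12, and in 5.17% of all 32851 promoters of the same length. The CCAAT box was in 10 of the 28 and in 37.4% of all promoters, 3 times in Ezh2 and once in Suz12. The GC box was in 18 of the 28 and in 35.7% of all, with 4 matches in Kmt2d, 5 in Kmt2a, 3 in Suz12 and 0 in Ezh2. The NRF1-type motif was in 0 of the 28 and in 2.71% of all. The window of Ezh1, which also rose with the combination, held 0 matches to each of these motifs and is not printed. The motifs were chosen with the changes of these genes known, and a match is a description of the letters only.

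With α-KG + anti-PD1, the writers of H3K4 methylation included the 4 members with the largest log2 changes, Kmt2d, Kmt2b, Kmt2a and Setd1b. Against vehicle, 24 of the 41 members rose and 1 fell at an adjusted p under 0.05, where 34.9% of all genes tested rose and 10.5% fell. Of the 8 H3K4 writers 7 rose, with a median log2 change of 0.86 against 0.15 over all genes. These 8 include Kmt2e, which is counted by its SET family and is described below as binding H3K4 trimethylation. Changes are differences in mean log2(FPKM + 1), which understate those of genes near 1 FPKM.

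Kmt2d (gene ID 381022, chr15:98831669-98874077 on mm10), which monomethylates H3K4 at enhancers, was at 5.00, 2.60, 1.72 and 1.74 FPKM with vehicle and at 9.07, 13.9, 10.9 and 8.82 FPKM with the combination. It was at 1.80, 7.08, 4.77 and 2.96 FPKM in the anti-PD1 and at 2.57, 3.55, 1.65 and 3.28 FPKM in the α-KG tumors. The 4 combination tumors lay above all 12 others, and the log2 change against vehicle was 1.69 ± 0.31 (SE, n = 4 per group, adjusted p = 0.00078 by limma). Kmt2b (chr7:30568855-30589056), the related H3K4 trimethylase of promoters, was at 9.43, 6.41, 4.68 and 4.10 FPKM in vehicle and at 11.9, 17.1, 13.5 and 13.1 FPKM in combination tumors, a log2 change of 1.10 ± 0.23 (SE, limma adjusted p = 0.0018). Kmt2a (chr9:44803355-44881352), the trimethylase known from leukemia translocations, was at 5.88, 3.72, 2.68 and 2.47 FPKM in vehicle and at 7.56, 8.27, 8.26 and 7.35 FPKM in combination tumors, a log2 change of 0.97 ± 0.22 (SE, limma adjusted p = 0.0033). In all 3 genes vehicle tumor 1 was the highest of its group, and the groups did not overlap.

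Setd1b (chr5:123142040-123168630) and Setd1a (chr7:127777389-127800122) are catalytic subunits of the SET1 complexes, which place most H3K4 trimethylation. Setd1b was at 3.34, 3.15, 2.10 and 2.02 FPKM in vehicle and at 6.34, 5.78, 6.27 and 5.34 FPKM in combination tumors, a log2 change of 0.94 ± 0.15 (SE, limma adjusted p = 0.00047). Setd1a was at 13.6, 11.0, 10.45 and 10.8 FPKM in vehicle and at 17.2, 20.1, 18.1 and 17.6 FPKM in combination tumors, a log2 change of 0.63. Both sets of 4 combination tumors lay above every vehicle tumor. Kmt2e, a SET protein that binds H3K4 trimethylation, was at 15.1, 12.3, 8.39 and 7.76 FPKM in vehicle and at 18.9, 19.7, 17.4 and 19.2 FPKM in combination tumors, a log2 change of 0.78. Kmt2c, the paralog of Kmt2d, rose by 0.61. Setd7, a monomethylase, was the H3K4 writer that did not pass, at a log2 difference of 0.30 (limma adjusted p = 0.052).

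The writers of H3K36 and H3K9 methylation had lower medians, 0.35 and 0.38. Of the 5 H3K36 writers 3 rose, Nsd1, Nsd3 and Setd2, with log2 changes of 0.88, 0.51 and 0.35. Nsd1 (chr13:55209782-55318325), which dimethylates H3K36, was at 3.34, 2.11, 1.61 and 1.52 FPKM in vehicle and at 4.40, 4.93, 5.05 and 4.20 FPKM in combination tumors, without overlap. Nsd2 and Ash1l did not pass, at differences of 0.03 and 0.32. Of the 5 H3K9 writers 3 rose, Setdb1 by 0.44, Ehmt2 by 0.39 and Ehmt1 by 0.38, while Setdb2 and Suv39h2 did not pass, at -0.17 and 0.05. Dot1l, the H3K79 methyltransferase, rose by 0.54.

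The H3K27 enzymes moved in opposite directions. Ezh2 (gene ID 14056, chr6:47530274-47595270), the catalytic subunit of PRC2 in dividing cells, was at 31.9, 37.4, 39.6 and 39.1 FPKM in vehicle and at 27.5, 28.8, 28.5 and 33.1 FPKM in combination tumors. It fell by 0.32 on the log2 scale (SE 0.08, limma adjusted p = 0.0072), and vehicle tumor 1 overlapped the combination tumors. With tumors rescaled to the same sum, Ezh2 was at -0.11 and did not pass (limma adjusted p = 0.40). The 12 cell cycle markers moved with it, 9 lower and 0 higher with a median of -0.41, and their part in this change was not tested. Ezh1 (chr11:101191115-101226463), its paralog in resting cells, was at 9.03, 9.26, 6.84 and 7.21 FPKM in vehicle and at 14.1, 12.3, 12.5 and 11.5 FPKM in combination tumors. It rose by 0.59 ± 0.10 (SE, limma adjusted p = 0.00062), and the groups did not overlap. Jarid2, which helps recruit PRC2 to its targets, rose by 0.53, while the core partners Eed and Suz12 did not pass, at 0.10 and 0.15.

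Among the α-KG-dependent erasers 7 of 15 rose with the combination and 0 fell. Kdm6b (gene ID 216850, chr11:69398508-69420367), which removes H3K27 trimethylation, was at 8.35, 8.99, 7.60 and 7.32 FPKM in vehicle tumors and at 7.48, 12.1, 8.49 and 8.01 FPKM with anti-PD1. It was at 14.8, 10.9, 11.5 and 21.04 FPKM with α-KG and at 14.6, 14.4, 13.9 and 15.4 FPKM with the combination. Its log2 change was 0.78 ± 0.17 (SE, limma adjusted p = 0.0021), and every combination tumor lay above every vehicle and every anti-PD1 tumor. Kdm3b, an H3K9 demethylase, rose by 0.63 from 4.09 to 5.37 FPKM in vehicle to 6.94 to 8.78 FPKM in combination tumors, and Kdm2a, which acts on H3K36 dimethylation, by 0.59 from 11.3 to 16.8 FPKM to 19.4 to 22.03 FPKM. Neither overlapped between the groups. Kdm3a, a hypoxia-responsive H3K9 demethylase, rose by 0.48, Kdm7a by 0.37, the H3K9 and H3K36 demethylase Kdm4a by 0.36 and Phf2 by 0.26.

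The other 8 erasers did not pass, with differences between -0.03 for Kdm4b and 0.37 for Jmjd1c. They included both α-KG-dependent H3K4 demethylases among the members, Kdm5a at 0.09 and Kdm5b at 0.03. Of the FAD-dependent enzymes, which also act on H3K4, Kdm1b rose by 0.35 and Kdm1a was at a difference of 0.02. Single tumors decided the smaller of these calls. Without vehicle tumor 4 the calls of Kdm3a, Kdm4a, Kdm7a, Phf2 and Kdm1b were lost, as were those of the writers Ehmt1 and Setd2, and without vehicle tumor 3 the same ones but Kdm4a. Combination tumor 1 decided Phf2 and Setd2, tumor 2 Kdm3a, Kdm1b, Ehmt1 and Setd2, tumor 3 Phf2, Kdm1b and Setd2, and tumor 4 Kdm3a, Kdm7a and Setd2. The study showed some of these erasers for their change in the same tumors, so their direction is not independent evidence.

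**Figure D1:**
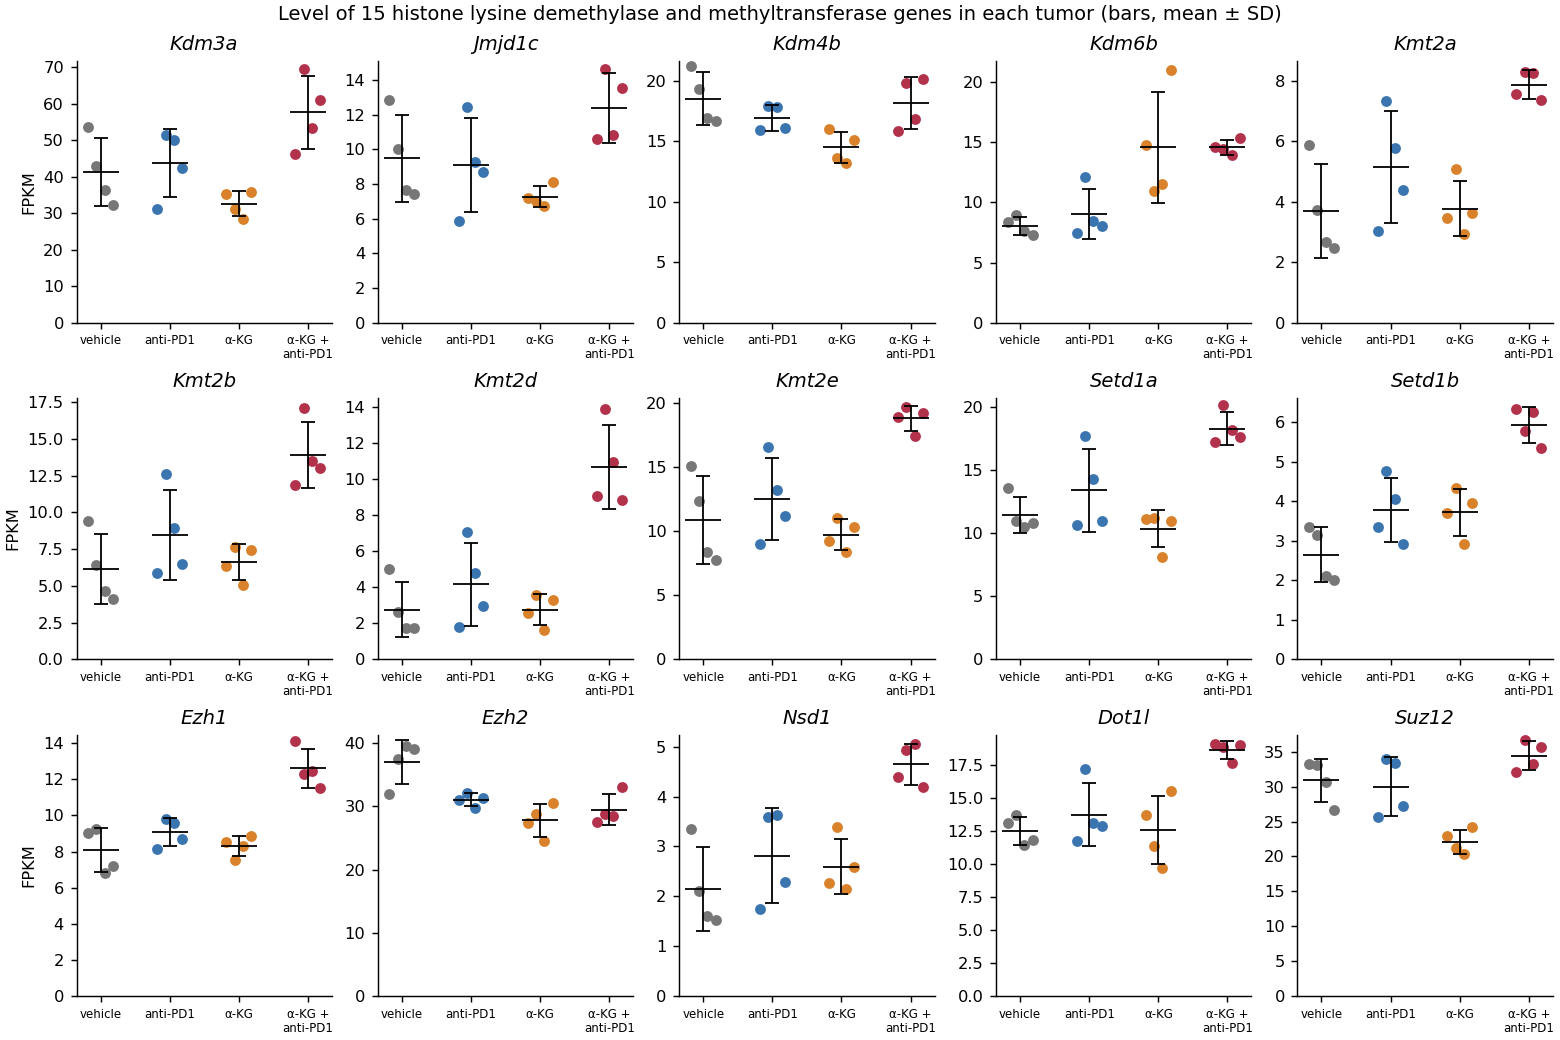
FPKM (vertical axis) of 15 members in each of the 16 tumors (points), by group (horizontal axis), with the mean ± SD of 4 tumors (bars). The 4 α-KG + anti-PD1 tumors lie above all vehicle tumors for Kmt2d (8.82 to 13.9 against 1.72 to 5.00 FPKM), Kmt2b, Kmt2a and Setd1b, while Kdm6b is also high in α-KG and Suz12 and Ezh2 are low there.

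Set side by side, 15 of 21 writers (71.4%) and 7 of 15 α-KG-dependent erasers (46.7%) rose with the combination, where 34.9% of all genes did. The median log2 difference was 0.51 over the writers, 0.26 over the erasers and 0.15 over all genes. These lists were not matched by mark, and 8 of the writers but 2 of the erasers act on H3K4. The H3K4 writers ran from 0.30 (Setd7) to 1.69 (Kmt2d), and the erasers Kdm5a and Kdm5b were at 0.09 and 0.03. For H3K27 the writers Ezh1 and Ezh2 were at 0.59 and -0.32, and the erasers Kdm6b and Kdm7a at 0.78 and 0.37. Every combination tumor lay above every vehicle tumor in 14 of 21 writers and 7 of 15 erasers, which held for 28.2% of all genes tested. After each tumor was centered on its median, 8 writers rose and 4 fell, and 3 erasers rose and 2 fell, where 17.1% of all genes rose and 37.4% fell. The median difference was then 0.20 over the writers, -0.05 over the erasers and -0.16 over all genes. Centering shifts all genes alike, so the gaps of 0.36 for the writers and 0.11 for the erasers to the median of all genes are the same on both scales. The 3 erasers past the threshold on both scales were Kdm6b, Kdm3b and Kdm2a, and the 8 writers were Kmt2a, Kmt2b, Kmt2d, Kmt2e, Setd1a, Setd1b, Ezh1 and Nsd1. The writers that were lower after centering were Ezh2 (-0.63), Setdb2 (-0.48), Nsd2 (-0.28) and Suv39h2 (-0.26), and the erasers were Kdm4b (-0.34) and Kdm5b (-0.28).

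Centering takes the same number from both lists, so the mean log2 level of the erasers minus that of the writers in a tumor does not depend on it. This difference was -0.03, 0.12, 0.06 and 0.10 in the vehicle and 0.05, -0.14, -0.06 and 0.01 in the anti-PD1 tumors. It was 0.12, -0.09, 0.07 and 0.11 with α-KG and -0.18, -0.21, -0.18 and -0.05 with the combination. In the same order the means were 0.06 ± 0.07, -0.03 ± 0.08, 0.05 ± 0.10 and -0.16 ± 0.07 (SD, n = 4 each). The combination minus vehicle was -0.22, against a pooled SD of 0.08 between tumors of a group. The 4 combination tumors were below all 4 vehicle tumors and overlapped with 1 α-KG and 2 anti-PD1 tumors. The mean with α-KG alone lay within the range of the vehicle tumors. No test was made of a score over these genes, whose lists were not matched by mark. On centered values the mean of the erasers was -0.12 ± 0.09 in vehicle and -0.13 ± 0.10 in combination tumors, and that of the writers -0.18 ± 0.12 and 0.03 ± 0.07.

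**Figure D2:**
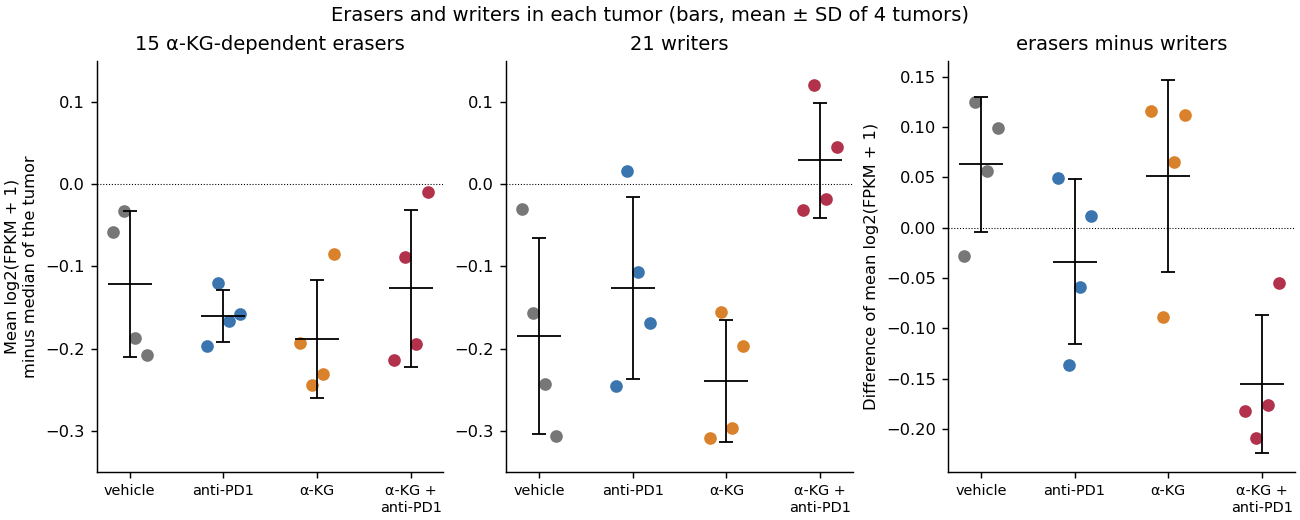
Mean log2(FPKM + 1) of the 15 α-KG-dependent erasers (left) and the 21 writers (middle) minus the median of the tumor, and the eraser mean minus the writer mean (right), for each tumor (points) by group, with mean ± SD of 4 tumors (bars). The centered eraser means are alike in vehicle and combination (-0.12 and -0.13), the writer mean is higher in the combination (0.03 against -0.18), and the difference is lower (-0.16 against 0.06).

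Transcript length moved with the same contrast. The longest annotated transcript had a median length of 7.41 kb over the writers, 5.61 kb over the erasers and 3.31 kb over all genes tested. Between combination and vehicle the median log2 difference of all genes was 0.03 for transcripts of 1 to 2 kb, 0.15 for 2 to 4 kb, 0.21 for 4 to 6 kb, 0.24 for 8 to 12 kb and 0.23 for over 12 kb. Across the 21 writers the log2 difference and log2 length had a Pearson's r of 0.74, and across the 15 erasers of 0.18. Across all 12601 genes tested with a known length, r was 0.05. For anti-PD1 against vehicle, r across the writers was also 0.74. The points are genes that share the same tumors. The level of genes over 8 kb relative to genes of 1 to 2 kb, as a deviation from the mean of all tumors, was 0.06 to 0.25 in combination and -0.20 to 0.11 in vehicle tumors on the log2 scale, and vehicle tumors 1 and 2 were the highest of their group. After the trend of each tumor over length and G+C content was removed, 17 of 21 writers rose and 1 fell with a median of 0.46, and 6 of 15 erasers rose and 0 fell with a median of 0.15. Of all genes 35.6% rose and 10.9% fell on these values, with a median of 0.15. Kmt2d then differed by 1.58, Kmt2a by 0.95, Kmt2b by 1.00 and Kdm6b by 0.69, and Phf2 no longer passed (limma adjusted p = 0.12). The eraser minus writer difference between combination and vehicle was -0.23 on the adjusted values and -0.22 before adjustment.

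**Figure D3:**
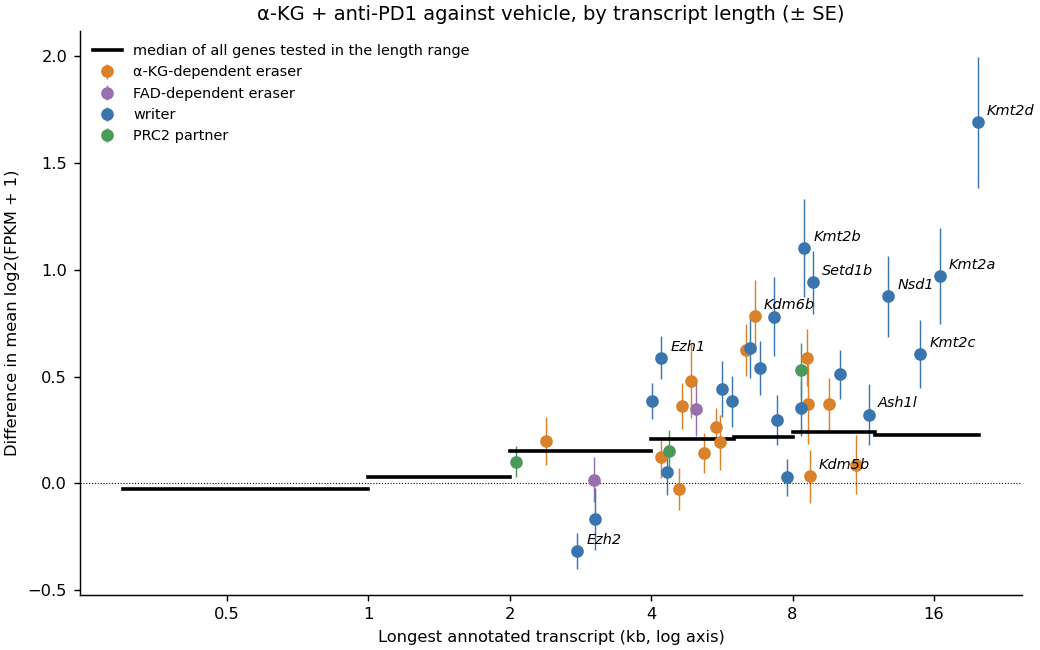
Difference in mean log2(FPKM + 1) between α-KG + anti-PD1 and vehicle (vertical axis, ± SE) against the length of the longest annotated transcript in kb (log axis) for the 41 members (points, by class), with the median of all genes tested in each length range (black lines). The medians run from -0.03 under 1 kb to 0.24 at 8 to 12 kb, and Kmt2d (19.8 kb), Kmt2a (16.5 kb) and Kmt2b (8.47 kb) lie far above them.

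α-KG alone changed few members. Against vehicle, Kdm6b rose and Suz12, Ezh2 and Kdm4b fell, where 8.40% of all genes rose and 7.53% fell. Kdm6b rose by 0.74 ± 0.17 (SE, limma adjusted p = 0.0071), from 7.32 to 8.99 FPKM in vehicle to 10.9 to 21.04 FPKM in α-KG tumors, without overlap. It was the single member of 41 with every α-KG tumor above every vehicle tumor, which held for 10.1% of all genes. α-KG tumor 4, at 21.04 FPKM, was the highest of all 16.

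Suz12 (gene ID 52615, chr11:79993106-80034123), a core subunit without which PRC2 is unstable, was at 33.3, 33.1, 30.7 and 26.7 FPKM in vehicle and at 22.9, 21.2, 20.3 and 24.15 FPKM in α-KG tumors. It fell by 0.46 on the log2 scale (SE 0.10, limma adjusted p = 0.0047), and every α-KG tumor lay below every vehicle tumor. Ezh2 was at 27.4, 28.7, 24.5 and 30.6 FPKM in α-KG tumors, likewise below all vehicle tumors, and fell by 0.40 (SE 0.08, limma adjusted p = 0.0043). Kdm4b, an H3K9 demethylase, was at 21.2, 19.3, 16.9 and 16.6 FPKM in vehicle and at 16.02, 13.6, 13.2 and 15.1 FPKM in α-KG tumors, again without overlap. It fell by 0.33 (limma adjusted p = 0.031), and the call was lost without vehicle tumor 1 (adjusted p = 0.070), vehicle tumor 2 (0.073), α-KG tumor 2 (0.083) or α-KG tumor 3 (0.098), and with tumors rescaled to the same sum (0.13) or these 2 groups alone (0.059). After centering, 2 members were higher and 5 lower, against 8.21% and 10.7% of all genes. Setd1b at 0.34 then joined Kdm6b, and Kdm4c at -0.30 and Nsd2 at -0.21 joined the 3 that fell. The median log2 difference over the erasers was -0.16, over the writers -0.01 and over all genes -0.04. The 12 cell cycle markers moved with this contrast too: 9 fell and 0 rose, with a median of -0.48, and all 7 neutrophil markers tested rose. The part of either in these changes was not tested. Without vehicle tumor 1, Setd1b passed as higher beside Kdm6b.

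**Figure D4:**
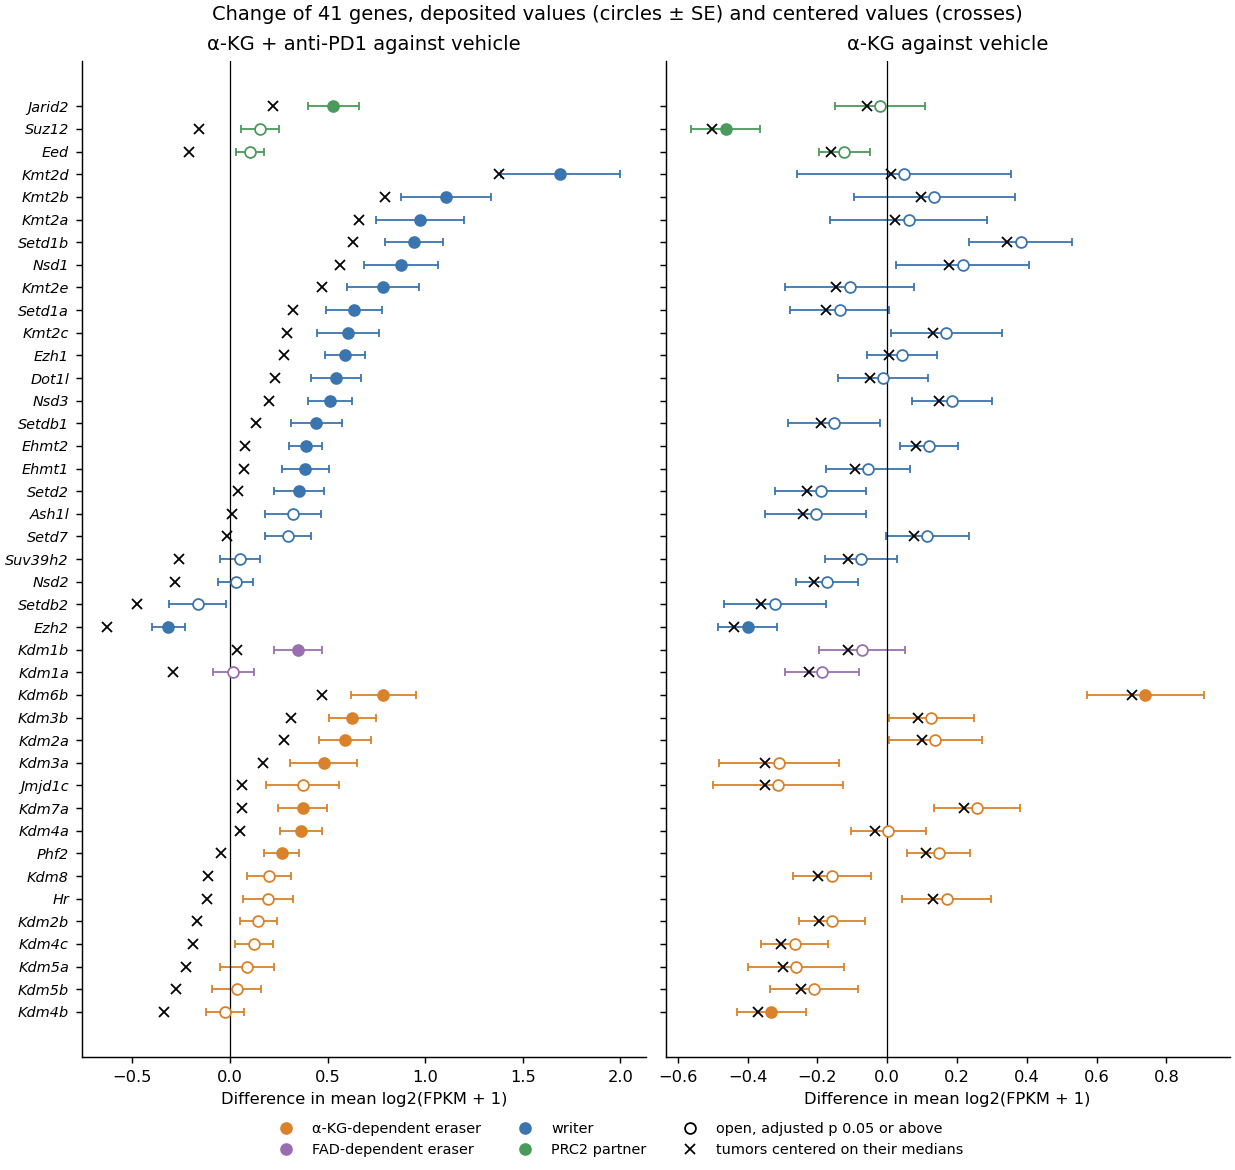
Difference in mean log2(FPKM + 1) of the 41 members (rows, by class) between α-KG + anti-PD1 and vehicle (left) and between α-KG and vehicle (right), on deposited values (circles, ± SE, filled where adjusted p is under 0.05) and on values centered on the median of each tumor (crosses). On the left 24 members are filled above 0 and 1 below, and on the right 1 above (Kdm6b, 0.74) and 3 below (Suz12, Ezh2 and Kdm4b), and centering lowers the values on the left by about 0.31.

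With anti-PD1 alone 0 members passed in either direction, where 0.467% of all genes rose and 0.280% fell by limma. At an unadjusted p under 0.05, 1 member was higher, Setd1b at 0.39, and 1 lower, Ezh2 at -0.24, where 9.98% of all genes were higher and 6.60% lower. The median log2 difference was 0.15 over the writers and 0.06 over the erasers. Anti-PD1 tumor 2 had the highest level of its group for Kmt2d, Kmt2b, Kmt2a and Kdm6b. Without vehicle tumor 1, 1 member passed, Ezh2 as lower, at -0.31 (limma adjusted p = 0.035).

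Against anti-PD1 alone, the combination was higher in 11 members and lower in 0, where 14.2% of all genes rose and 1.31% fell. They were 8 writers (Kmt2d 1.27, Nsd1 0.60, Kmt2e 0.58, Setd1b 0.55, Setd1a 0.45, Ezh1 0.43, Dot1l 0.43 and Nsd3 0.36), the erasers Kdm6b (0.66) and Kdm3b (0.41), and Jarid2 (0.42). Ezh1 was at 8.15, 9.81, 9.60 and 8.69 FPKM and Dot1l at 11.7, 17.2, 13.1 and 12.9 FPKM in the anti-PD1 tumors, with Dot1l at 19.0, 18.9, 17.6 and 19.0 FPKM in the combination. For both genes all 4 combination tumors lay above them. These calls were unsteady, since leaving out single tumors gave from 0 (without anti-PD1 tumor 1, anti-PD1 tumor 4 or combination tumor 3) to 21 (without anti-PD1 tumor 2) members higher, without anti-PD1 tumor 3 or combination tumors 1 or 2 the count was 7, 3 and 4, and a fit of these 2 groups alone gave 0. The share of all genes passing in these refits is not printed beside the counts. After centering, 2 members were higher, Kmt2d and Kdm6b, and 1 was lower, Nsd2, where 6.24% of all genes rose and 15.3% fell.

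Against α-KG alone, 29 members were higher and 0 lower, where 31.8% of all genes rose and 6.47% fell. The 29 held 16 of 21 writers, 9 of 15 α-KG-dependent erasers, Kdm1b and all 3 PRC2 partners. Kmt2d led at 1.64, followed by Kmt2b at 0.97, Kmt2a at 0.91 and Kmt2e at 0.89. Among the erasers Kdm3a was at 35.3, 31.0, 28.4 and 35.7 FPKM in α-KG and at 46.3, 69.6, 53.3 and 61.0 FPKM in combination tumors, a log2 change of 0.79 (SE 0.17, limma adjusted p = 0.0031). Jmjd1c, of the same KDM3 family, was at 7.21, 7.04, 6.74 and 8.12 FPKM and at 10.6, 14.7, 10.8 and 13.5 FPKM, a change of 0.68. Neither gene overlapped between the groups. Kdm6b did not differ beyond the spread, at 0.04 (SE 0.17), and Ezh2 was at 0.08 (SE 0.08). After centering, 14 members were higher and 0 lower, against 13.7% and 24.3% of all genes.

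The effect of anti-PD1 differed with and without α-KG in 1 member by the interaction test, Suz12, where 7.99% of all genes passed as higher and 3.13% as lower. Suz12 was at 25.6, 34.0, 33.3 and 27.2 FPKM in the anti-PD1 and at 32.1, 36.6, 33.2 and 35.7 FPKM in the combination tumors. The mean was 30.9 ± 3.07 FPKM with vehicle and 30.0 ± 4.25 FPKM with anti-PD1, against 22.1 ± 1.73 FPKM with α-KG and 34.4 ± 2.10 FPKM with the combination (SD, n = 4 each). The anti-PD1 effect was -0.05 without and 0.62 with α-KG, a difference of 0.66 ± 0.14 (SE, limma adjusted p = 0.0089), and it remained past the threshold after centering (0.47, adjusted p = 0.013). For Kmt2d the same difference was 1.22 ± 0.43 and did not pass (limma adjusted p = 0.077). At an unadjusted p under 0.05, 20 of the 41 members were positive and 0 negative, where 23.0% of all genes were positive and 6.67% negative, but none of the 21 writers passed after adjustment. Without anti-PD1 tumor 2, 13 members passed, without combination tumor 1, 3 passed, and without vehicle tumor 1 or vehicle tumor 4, 2 passed. The share of all genes passing in these refits is not printed either, so the counts describe only how steady the calls were.

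Other enzymes and partners of these complexes, from lists outside the 41 members, moved as follows. Of 16 other histone methylation enzymes tested, 9 rose with the combination against vehicle and 0 fell, where 34.9% and 10.5% of all genes did, with a median of 0.35 against 0.15. The H4K20 methyltransferase Kmt5c rose by 1.34, from 17.5 ± 4.31 to 45.9 ± 10.2 FPKM (SD, n = 4), Setd6 by 0.80 and Kmt5b by 0.71. Kmt5c also passed the interaction test, at 1.24 (limma adjusted p = 0.017). With α-KG alone 1 of the 16 fell, Smyd5 at -0.36, where 7.53% of all genes fell. After centering, 3 of the 16 were higher and 4 lower in the combination, where 17.1% and 37.4% of all genes were.

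Of 29 partners of the complexes, 11 rose and 4 fell with the combination, with a median of 0.12, which is near the 34.9% and 10.5% of all genes and their median of 0.15. Phf1, a PRC2 accessory protein, rose by 2.04, from 4.80 ± 2.31 to 22.03 ± 4.27 FPKM, Phf21a, which binds unmethylated H3K4 in the KDM1A complex, by 0.72 and the PRC2 accessory protein Mtf2 by 0.67. On centered values Phf1 and Phf21a still passed, and Mtf2 did not, at 0.36 (limma adjusted p = 0.12). With α-KG alone 0 rose and 3 fell, the KDM1A corepressor Rcor2 by 0.82, the core H3K4 methyltransferase subunit Ash2l by 0.32 and the histone chaperone Rbbp7, a part of PRC2, by 0.29. In that comparison 8.40% of all genes rose and 7.53% fell. After centering, 2 of the 29 were higher and 12 lower in the combination, where 17.1% and 37.4% of all genes were. Rcor2 was the single partner past the threshold with anti-PD1 alone, at -0.59, where 0.280% of all genes fell. It also passed the interaction test, at 0.98 (limma adjusted p = 0.0043).

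Tumors of a group also differed in leukocyte and cell cycle markers, and the relation of each member to them was computed on deviations from the group means, over 16 tumors and 82 member and score pairs. The leukocyte score went with Kdm2a (Pearson's r = 0.70, permutation adjusted p = 0.027, Spearman's rho = 0.74, adjusted p = 0.011), Ezh1 (r = 0.81, permutation adjusted p = 0.049, rho = 0.81, adjusted p = 0.046), Kdm3b (r = 0.74, permutation adjusted p = 0.049, rho = 0.75, adjusted p = 0.025) and Nsd3 (r = 0.65, permutation adjusted p = 0.049, rho = 0.76, adjusted p = 0.021). By rank alone, Setd1b (rho = 0.76, permutation adjusted p = 0.026), Phf2 (rho = 0.73, permutation adjusted p = 0.034) and Jarid2 (rho = 0.65, permutation adjusted p = 0.043) also passed, with r of 0.69, 0.65 and 0.54 that did not. The cell cycle score went with Ezh2 (r = 0.80, permutation adjusted p = 0.049, rho = 0.72, adjusted p = 0.034). With the 2 most extreme tumors of the score left out, r was 0.69 for Kdm2a, 0.78 for Ezh1, 0.71 for Kdm3b, 0.71 for Nsd3 and 0.56 for Ezh2. For Kmt2d the relation with the leukocyte score did not pass (r = 0.51, permutation adjusted p = 0.26). After centering, Ezh2 alone passed by Pearson's r, at r = 0.87 with the cell cycle score (permutation adjusted p = 0.016) and r = -0.83 with the leukocyte score (permutation adjusted p = 0.016), with rho of 0.81 and -0.85 (permutation adjusted p = 0.050 for both). Without the 2 tumors, these r were 0.78 and -0.73.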

How the data were processed

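RNA was taken from 16 B16F10 tumors, selected for poly(A), made into libraries with dUTP in the second strand and sequenced on a DNBSEQ instrument, per the labels. The submitters' processing notes name HISAT, Bowtie2 and the build mm10 without versions or roles, and the program that gave the values, the annotation and any filter are not given in the sources used here. The authors deposited FPKM values with 2 decimals for 18929 genes, with no scaling between tumors stated. Whether the strand was used in counting is not stated, so overlapping genes may share fragments.

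Each value was taken as log2(FPKM + 1), and the 12850 genes that reached 0.5 FPKM in 4 or more tumors were fitted with 1 mean per group over all 16 tumors in limma 3.58.1 (R 4.3.3, eBayes with a trend, 12 residual degrees of freedom), with Benjamini-Hochberg adjusted p over these genes and calls at 0.05. The 3 comparisons with the combination share its tumors, and the 3 with vehicle share the vehicle tumors. The interaction is (combination minus α-KG) minus (anti-PD1 minus vehicle). The fit was tested on simulated data. Replicates were separate tumors by their labels, and no batch is named. Transcript lengths and G+C content came from the longest GENCODE M21 transcript, for 98.1% of the genes tested, gene positions from RefSeq on GRCm38.p6, the same build as mm10. Depth was estimated from genes under 3 kb at 0.03 FPKM or more. Relations used 100000 permutations within groups (smallest p 1e-05) in Python 3.11.15 with scipy 1.17.1.

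All 41 members are accounted for. Values by tumor are printed for up to 8 members per comparison with the largest changes past the threshold and for the interaction, and other genes are up to 3 per list and comparison. The members and lists were chosen with earlier results of these data known. Alternatives were a pseudocount of 0.1, no filter, a filter of 1 FPKM, centering, quantile normalization, rescaling to the same sum with and without erythroid genes, the 2 groups alone, a replicate block and leaving out each tumor, and, added after the data were seen, the length and G+C adjustment and the repeats of the relations.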

Additional observations from a re-analysis of the deposited data

Results flagged for a closer look

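Suz12 was singled out because the effect of anti-PD1 differed with and without α-KG, by 0.66 on the log2 scale (limma, adjusted p = 0.0089). In 168 checks of a tumor far from the other 3 of its group, 4 were past Dixon's critical value, which chance passes in about 1 in 20 groups. Kdm4a was lower in anti-PD1 tumor 4, at 12.7 FPKM against 14.0 to 14.2 FPKM in the others. Setd1a was lower in α-KG tumor 3, at 8.14 FPKM against 11.0 to 11.2 FPKM. Setdb1 was higher in vehicle tumor 1, at 12.9 FPKM against 10.45 to 10.50 FPKM. Dot1l was lower in combination tumor 3, at 17.6 FPKM against 18.9 to 19.0 FPKM.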

How the results depend on the processing

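The limits are the FPKM unit without counts, 4 tumors a group, a shift in scale of the combination tumors and mixed cells in each tumor. Of 1337 repeated values of members past the threshold, 1063 kept their direction and side of the threshold, 264 kept the direction only and 10 turned. In both directions, 11 of 25 calls held under every alternative for the combination against vehicle, 3 of 4 for α-KG against vehicle, 0 of 11 for the combination against anti-PD1, 11 of 29 for the combination against α-KG and 1 of 1 for the interaction. The cause of the changes below was not tested.

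Against vehicle, the combination had 24 members higher and 1 lower, which became 12 and 8 on centered values, 15 and 6 after quantile normalization and 14 and 6 on values adjusted for length and G+C and centered, and 0 were lower after rescaling to the same sum. With the same sum all 24 stayed higher, and Kdm2b, Jmjd1c, Kdm8, Setd7, Ash1l, Eed and Suz12 also passed as higher. For α-KG against vehicle, 1 higher and 3 lower became 2 and 5 after centering, 3 and 6 after adjustment with centering, 3 higher after adjustment alone and 7 lower after quantile normalization, while 2 were lower with the same sum, with a replicate block and with the 2 groups alone, where Kdm4b was lost. For the combination against anti-PD1, 11 higher became 7 with a pseudocount of 0.1, 4 without a filter, 2 on centered values, 2 after quantile normalization, 27 with the same sum, 5 with the same sum without erythroid genes, 2 after adjustment with centering and 0 with these 2 groups alone, and 0 lower became 1 after centering and 1 after adjustment with centering. For the combination against α-KG, 29 higher became 14 after centering, 13 after quantile normalization and 14 after adjustment with centering, which also gave 3 lower. For the interaction, 1 higher became 2 after quantile normalization, 11 with the same sum, 2 with the same sum without erythroid genes and 3 after adjustment. Of the relations with marker scores, 5 became 2 after centering, 0 after quantile normalization, 12 with the same sum, 3 with the same sum without erythroid genes and 9 after adjustment. The adjustment was chosen after seeing the data. These counts of members are printed without the share of all genes under each alternative, and they describe only how steady the calls were. Rescaling to the same sum moved all genes as well. For the interaction the median of all genes was 0.15 in the main fit and 0.32 with the same sum.

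The values that turned were, for the combination against vehicle, Phf2 at -0.048 after centering, -0.011 after quantile normalization and -0.12 after adjustment with centering, and Kdm7a at -0.054, Kdm1b at -0.16 and Setd2 at -0.012 after quantile normalization. For the combination against α-KG they were Ehmt2 at -0.0060 and Eed at -0.049 after centering, and Kdm4b at -0.064 and Ehmt2 at -0.10 after adjustment with centering. The eraser minus writer difference ran from -0.24 to -0.20 over the other alternatives.

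Leaving out each tumor in turn gave 17 to 27 members higher and 1 lower for the combination against vehicle, 1 to 2 higher and 2 to 3 lower for α-KG, 0 higher and 0 to 1 lower for anti-PD1, 0 to 21 higher for the combination against anti-PD1, 20 to 27 higher against α-KG, 1 to 13 for the interaction and -0.25 to -0.20 for the eraser minus writer difference. These counts too stand without the share of all genes in each refit. Correlations of same-numbered tumors ran from -0.64 to 0.41, without a steady pairing by replicate number over all comparisons. For the combination against anti-PD1 they ran from -0.12 to 0.41, and 3 were over 0.1. A replicate block gave 7 members higher for that comparison, and over all comparisons it kept 63 of 70 calls.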
